A study of Mus musculus with 6 samples.

Results

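The kidney genes described here encode the proton pump of the vacuolar type and the transporters, enzymes and ammonia channels of acid-base handling. They were taken by name from the deposited table: every gene whose symbol starts with Atp6v, Slc4a, Slc26a or Slc9a, apart from Slc9a3r1, and Car2, Car4, Car12, Car14, Car15, Rhcg, Rhbg and Foxi1. Of 7373 rows, 43 had such a name. Of these, 1 was left out because it was listed at 0 in control 3, which leaves 42 genes. The choice was by name, and it was made with earlier results of these data known.

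The kidneys were those of adult males of the inbred strain FVB/N, and RNA was sequenced from whole tissue. The 3 transgenic kidneys came from mice that overexpress CryAB, a small heat shock protein, carrying the R120G missense mutation. The α-myosin heavy chain promoter restricts that transgene to heart muscle cells, so the kidney itself is not the tissue in which it is driven, and the animals were taken before heart failure began. The 3 control kidneys came from mice of the same strain and sex, matched for age. The columns of all 6 kidneys carry the tag Pre_IRI in the deposited table. Since no label says that each sample is a separate animal, p-values measure only the spread between these samples, which may be technical.

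The vacuolar proton pump is a rotary enzyme: its V1 sector splits ATP in the cytosol, and its V0 sector carries protons through the membrane. Nearly every cell uses it to acidify lysosomes and endosomes, and the intercalated cells of the collecting duct also place it at the cell surface to secrete acid, with some subunits replaced by forms that few other cells make. The proximal tubule reclaims filtered bicarbonate with a sodium-proton exchanger, carbonic anhydrases and a sodium-bicarbonate cotransporter, and Rh channels let ammonia reach the urine.

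The libraries held between 23.5 and 47.6 M estimated counts over the listed genes, and the 42 genes took between 0.598% and 0.643% of the counts. The lowest count of any of the 42 in any library was 321. Control 3 stood apart in 2 ways. All 178 rows on chromosomes X and Y were listed at 0 there, and these rows were left out of the fit, and on the leading principal component (51.9% of the variance) control 3 had a score of 24.7, against -12.5 to 0.71 for the rest. All 14 proximal tubule markers checked were in the table. Of the 16 intercalated cell markers that are outside the 42 genes, 8 were in the table, the vesicle water channel gene Aqp6 among them, and their summed level was 474 to 600.5 CPM (the count as a rate of the TMM-scaled library size, the unit of levels here unless per kb is stated) in controls and 529.6 to 589 in transgenic kidneys. In whole kidney RNA, fewer cells of a type and less RNA per cell cannot be told apart.

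The sequences upstream of 4 genes are shown, since these genes are the pair whose groups did not overlap and 2 genes made in intercalated cells, 1 of acid secretion (Atp6v1b1) and 1 of bicarbonate secretion (Slc26a4). Each is the 250 bases before a RefSeq transcription start (GRCm38.p6), 5′ to 3′ on the gene's strand. The windows of Slc9a3 and Atp6v1a lie inside the gene spans given below, so the starts they precede are not the outermost ones. Capitals in Slc9a3 and Atp6v1a mark TCACGTG read on either strand, the core of the element bound by TFEB, a regulator of lysosomal genes. Capitals in Atp6v1b1 and Slc26a4 mark TGTTTNC read on either strand, a forkhead motif, the class of motif that Foxi1 binds.
Slc9a3 (chr13:74121163-74121412, plus strand): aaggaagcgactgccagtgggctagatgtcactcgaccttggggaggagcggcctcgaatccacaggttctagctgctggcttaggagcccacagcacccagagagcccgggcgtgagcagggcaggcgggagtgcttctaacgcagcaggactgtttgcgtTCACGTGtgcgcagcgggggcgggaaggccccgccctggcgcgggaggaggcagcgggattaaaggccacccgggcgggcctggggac
Atp6v1a (chr16:44139260-44139509, minus strand): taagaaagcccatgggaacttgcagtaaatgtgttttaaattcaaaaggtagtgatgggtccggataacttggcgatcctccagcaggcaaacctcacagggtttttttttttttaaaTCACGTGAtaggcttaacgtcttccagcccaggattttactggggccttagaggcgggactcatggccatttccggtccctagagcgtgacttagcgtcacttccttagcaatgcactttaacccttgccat
Atp6v1b1 (chr6:83742767-83743016, plus strand): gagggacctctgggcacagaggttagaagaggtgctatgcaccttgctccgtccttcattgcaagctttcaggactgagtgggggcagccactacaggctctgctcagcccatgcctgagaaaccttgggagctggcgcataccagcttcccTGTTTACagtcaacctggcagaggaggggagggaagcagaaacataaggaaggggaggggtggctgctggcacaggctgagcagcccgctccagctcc
Slc26a4 (chr12:31559985-31560234, minus strand): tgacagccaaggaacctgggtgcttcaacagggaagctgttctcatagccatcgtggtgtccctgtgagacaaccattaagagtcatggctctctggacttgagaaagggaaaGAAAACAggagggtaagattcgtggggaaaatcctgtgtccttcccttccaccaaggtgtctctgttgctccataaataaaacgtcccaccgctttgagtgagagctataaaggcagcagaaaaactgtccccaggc

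RefSeq windows were found for 29 of the 42 genes. In 27 of their 35 windows, bases 11 to 35 past the start lay in a transcript of the gene on its strand. TCACGTG was in the windows of 4 of the 29 (13.8%), namely Atp6v0b, Atp6v1a, Slc26a1 and Slc9a3, against 3.58% of 27025 genes with a window. In Atp6v1a the capitals are 2 overlapping matches on opposite strands. TGTTTNC was in 6 of the 29 (20.7%), against 19.9% of all genes with a window. Of the subunit forms restricted to few kidney cell types, Atp6v1b1 and Atp6v1g3 held it, 2 of 4 with a window, and none of the 10 other subunit genes did. TGTTTNC was thus in 2 of all 14 pump subunit genes with a window (14.3%), below the share of all genes. The remaining windows with it were those of Foxi1, Slc26a1, Slc26a4 and Slc9a3. These are matches of letters in a short window, chosen for display after the levels were known, and no binding was measured.

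None of the 42 genes passed an adjusted p of 0.05 between transgenic and control kidneys, and the smallest adjusted p among them was 0.997 (edgeR quasi-likelihood test, Benjamini-Hochberg adjustment over 7194 rows). None had an unadjusted p under 0.05 in edgeR with all 6 libraries and no GC correction, where 1.82% of all rows had one. Without control 2 there were 4 such genes (Slc9a3, Atp6v1a, Atp6v1h and Car2, against 8.30% of all rows). Without transgenic kidney 2 there were 2 (Slc9a8 and Car14, against 1.60% of all rows). There was 1 without control 3 (Car14, against 2.31% of all rows) and 1 with the GC and length correction (Slc9a3, against 2.66%). DESeq2 gave 0 called genes and 0 with an unadjusted p under 0.05 among them. Over all rows 1 gene was called (0.0139%), Ren1, the renin gene, which is not among the 42. Of the 42 genes 24 lay higher and 18 lower in transgenic kidneys, with a median log2 fold change of 0.01, against 0.00 over all rows, and the range ran from -0.24 (Car2) to 0.28 (Car14). The size of the difference was under 0.1 on the log2 scale for 23 of them (54.8%, against 62.3% of all rows). The 95% interval of the difference stayed within 1.5-fold in both directions for 35 of 42 genes (83.3%, against 89.6% of all rows), so for these a larger difference lies outside the interval. Among the other 7 were Slc4a3, Slc4a4, Slc4a11, Slc26a10, Car2 and Car14.

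**Figure D1:**
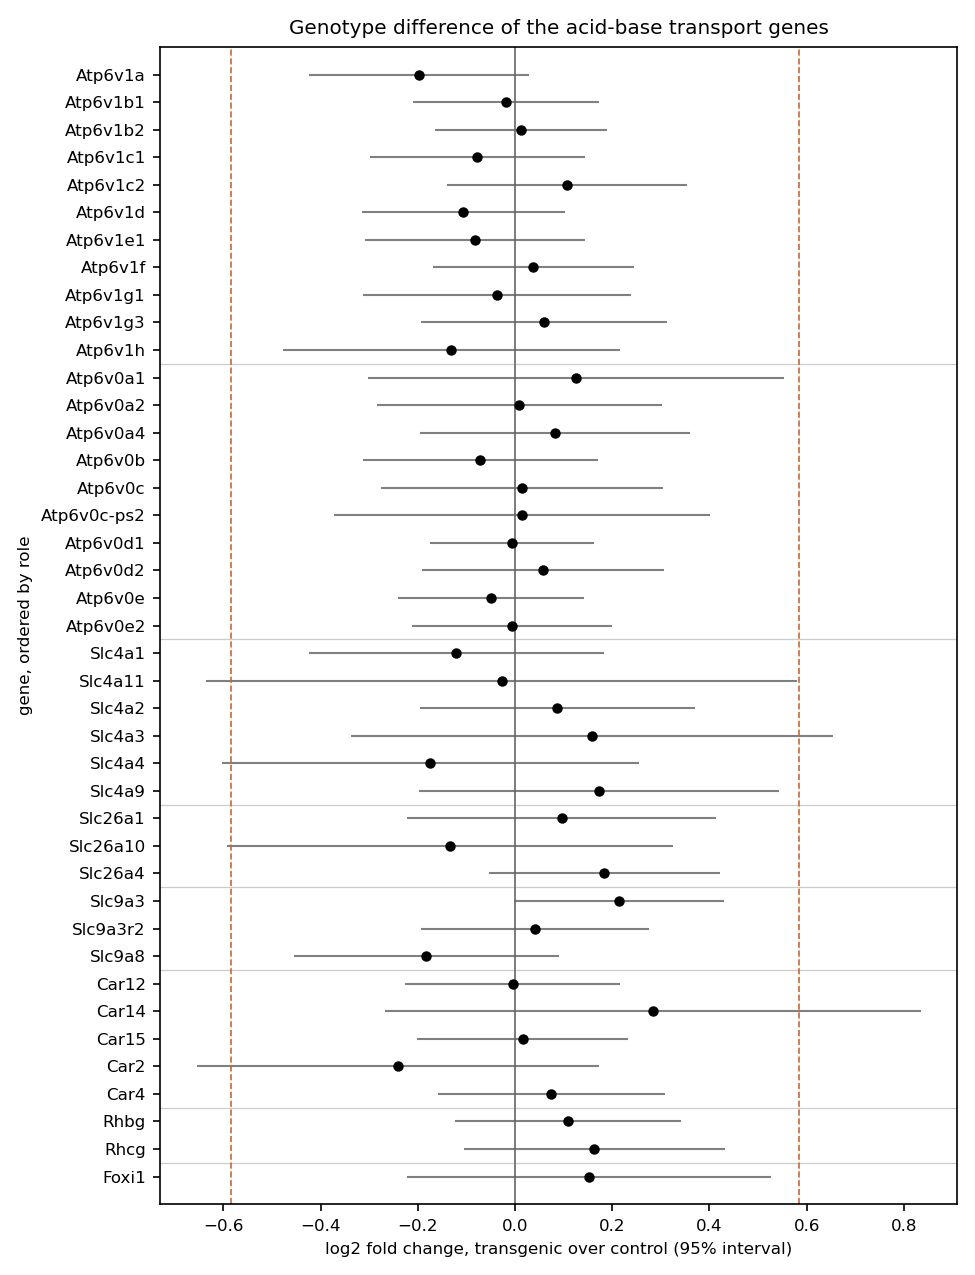
Log2 fold change of 41 of the 42 genes, transgenic over control (points), with the 95% interval from the edgeR fit (bars); dashed lines mark 1.5-fold and grey lines separate the roles. All 41 intervals include 0, and the widest belong to Slc4a11, Car14 and Slc4a3.

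In 2 genes the groups did not overlap, 1 higher (Slc9a3) and 1 lower (Atp6v1a) in transgenic kidneys, which is 4.76% of the 42 and compares with 5.98% of all rows. Slc9a3 (chromosome 13, 74086255 to 74169442, mm10) encodes NHE3, the apical exchanger that secretes protons into the proximal tubule lumen in return for sodium. It stood at 147, 164 and 136 CPM in controls 1, 2 and 3 and at 184, 169.6 and 165 in transgenic kidneys 1, 2 and 3. The margin was small, since the lowest transgenic value, in kidney 3, lay just above the highest control value, in control 2. The means were 149 ± 14.2 (SD, n = 3) and 173 ± 10.3 (SD, n = 3), a log2 fold change of 0.21 ± 0.09 (SE; unadjusted p = 0.0523, adjusted p = 0.997, edgeR). Leaving out 1 library at a time moved the log2 fold change between 0.15 (without control 3) and 0.29 (without control 2).

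Atp6v1a (chromosome 16, 44085402 to 44139702, mm10) encodes the catalytic A subunit of the V1 sector, the site where ATP is split. It stood at 289, 278 and 345 CPM in controls 1 to 3 and at 256, 277 and 262 in transgenic kidneys 1 to 3. Control 2 and transgenic kidney 2 were nearly level, and control 3 was the highest of the 6. The log2 fold change was -0.20 ± 0.10 (SE; unadjusted p = 0.0791, adjusted p = 0.997, edgeR), and it was -0.10 without control 3.

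In the V1 sector as a whole 7 of 11 genes lay lower and 4 higher, with a median log2 fold change of -0.04. Over all rows 3574 of 7194 lay lower. All 11 intervals in the sector stayed within 1.5-fold. Among the genes for the parts of V1 found in every cell, the rotor subunit gene Atp6v1d lay at 131, 123 and 147 CPM in controls and 127, 119 and 127 in transgenic kidneys (log2 fold change -0.11 ± 0.09, SE). The values overlapped, and control 3 was again the highest. Atp6v1b2, the broadly made form of the nucleotide-binding B subunit, stood at 319, 318 and 295 CPM in controls and 313, 302 and 326 in transgenic kidneys. Its log2 fold change was 0.01, with a 95% interval from -0.16 to 0.19. The stator genes Atp6v1e1 and Atp6v1g1 differed by -0.08 and -0.04, the rotor gene Atp6v1f by 0.04, Atp6v1c1 by -0.08, and Atp6v1h, which encodes a regulatory subunit, by -0.13. Atp6v1h ranged from 120.0 in control 2 to 190.4 CPM in control 3, while the transgenic kidneys lay between 136 and 147. Control 3 was the highest of the 6 libraries in 8 of the 11 V1 genes, more than its share of highest values over all rows (34.8%), and this was not tested. Without control 3 the log2 fold change turned positive in Atp6v1b1 (0.012), Atp6v1c1 (0.0027), Atp6v1e1 (0.013), Atp6v1g1 (0.063) and Atp6v1h (0.047). It turned negative in Atp6v1b2 (-0.022).

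The V0 sector differed little: 9 of its 10 rows had a log2 fold change under 0.1 in size, and the median was 0.01. Among these 10 rows is Atp6v0c-ps2, a transcribed pseudogene and not a subunit gene. Atp6v0d1, which encodes the ubiquitous d subunit that couples the rotor to V1, was the steadiest of the 42 genes. Its coefficient of variation within groups was 2.19% (root mean square over both groups). Atp6v0d1 ranged only from 138 CPM in control 3 to 146 in control 1, and its 95% interval ran from -0.17 to 0.16 on the log2 scale. Atp6v0a1, a broadly made form of the a subunit that forms the proton half-channels, was the exception at 0.13. It stood at 76.2, 82.1 and 47.3 CPM in controls and 71.0, 77.3 and 75.9 in transgenic kidneys. Control 3 alone was low, and without it the log2 fold change was -0.08. The proton-carrying ring genes Atp6v0b and Atp6v0c differed by -0.07 and 0.01, the small membrane subunit genes Atp6v0e and Atp6v0e2 by -0.05 and -0.01, and Atp6v0a2 by 0.01. The table gives Atp6v0a2 under a locus-specific row, so reads at another locus would not be in its value.

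Atp6v0c has a processed copy, Atp6v0c-ps2, on chromosome 6. Of the 861 pairs among the 42 genes this was the only pair whose transcripts share stretches of 75 bases, and the shared stretches made up 80.8% of those of the copy and 28.5% of those of Atp6v0c. The split of reads between these 2 rows is therefore uncertain, and so are their near-equal levels (65.4 and 67.6 CPM on average in controls). Their sum was 133 ± 13.9 CPM (SD, n = 3) among control kidneys against 134 ± 25.4 (SD, n = 3) among transgenic ones.

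Per length of transcript, the pump subunit genes differed widely in level (CPM per kb of the longest protein-coding transcript, averaged over the 6 kidneys). Atp6v1g1 was highest at 448, followed by Atp6v1f at 364, Atp6v1e1 at 335 and Atp6v0b at 303. Atp6v1g1 ranged from 393 to 515 and did not overlap Atp6v1f (326 to 386), while Atp6v1f, Atp6v1e1 (305 to 387) and Atp6v0b (273 to 337) overlapped one another. Atp6v1b2 came next at 110.4, then Atp6v0d1 at 87.6, and these neighbours did not overlap. Atp6v1h, Atp6v1a, Atp6v0e, Atp6v0a4, Atp6v0c and Atp6v1c1 lay between 54.9 and 72.2 with overlapping ranges. Atp6v0a2 was lowest at 4.26. The longest transcript need not be the one made in kidney, so the order between genes depends on that choice. The place of Atp6v0c also depends on the uncertain split of reads with Atp6v0c-ps2, whose row is not added here.

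**Figure D2:**
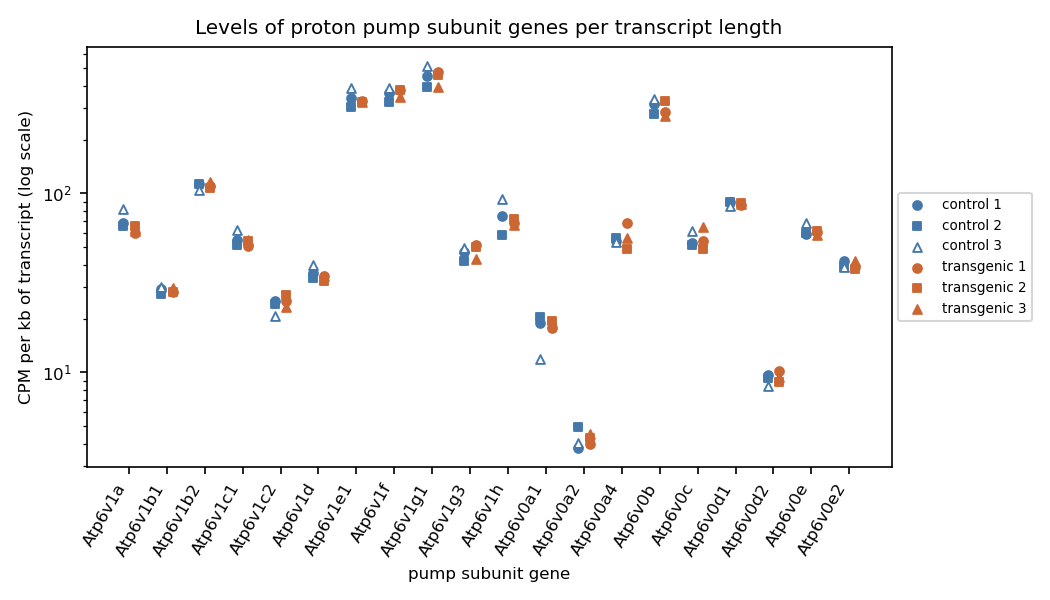
Level of each of 20 pump subunit genes in each kidney (CPM per kb of transcript, log axis), controls in blue on the left and transgenic kidneys in orange on the right of each gene. Levels run from about 4.26 for Atp6v0a2 to 448 for Atp6v1g1, and the 2 groups lie on top of each other compared with the distance between genes.

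The subunit forms that intercalated cells and few other cell types make were set beside their broadly made counterparts as a share of the pair, computed from CPM per kb of transcript and so not from the CPM printed elsewhere. The B1 form, Atp6v1b1, mutated in human distal renal tubular acidosis with deafness, made up 20.6%, 19.6% and 22.4% of the B pair in controls and 20.3%, 20.7% and 20.4% in transgenic kidneys. The kidney a4 form, Atp6v0a4, made up 76.5% ± 4.67 (SD, n = 3) of the pair with Atp6v0a1 among control kidneys against 75.4% ± 3.92 (SD, n = 3) among transgenic ones. The a4 form was thus the larger part of its pair in every kidney, while the B1, C2, G3 and d2 forms were the smaller part of theirs. Atp6v1c2 made up 29.3% ± 3.91 (SD, n = 3) and 31.9% ± 2.07 (SD, n = 3) of the C pair, and Atp6v0d2 9.42% ± 0.379 (SD, n = 3) and 9.80% ± 0.732 (SD, n = 3) of the d pair.

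The share of the G3 form, Atp6v1g3, was the 1 share whose groups did not overlap. It was 9.40%, 9.59% and 8.82% of the pair with Atp6v1g1 (again in CPM per kb) in controls and 9.72%, 9.87% and 9.87% in transgenic kidneys, a difference of 0.55 percentage points. The exact two-sided permutation test gave p = 0.1, the smallest that 3 against 3 can give, and 0.6 after adjustment over the 6 pairs. The other 5 pairs, that of Atp6v0e2 and Atp6v0e included, had exact p-values between 0.5 and 0.8. The level of Atp6v1g3 itself overlapped, at 88.8, 78.6 and 93.9 CPM in controls and 97.0, 94.2 and 81.1 in transgenic kidneys.

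The levels of the other restricted forms overlapped too. Atp6v1b1 stood at 58.5, 54.9 and 60.3 CPM in controls and 56.5, 55.9 and 59.1 in transgenic kidneys, giving a log2 fold change of -0.02 with a 95% interval from -0.21 to 0.17. Atp6v0a4 stood at 180.0, 188 and 176 CPM in controls and 227, 162 and 187 in transgenic kidneys, where transgenic kidney 1 was the highest and transgenic kidney 2 the lowest of all 6. Atp6v0d2 stood at 24.6, 23.6 and 21.4 CPM in controls and 25.9, 22.4 and 24.1 in transgenic kidneys. Their log2 fold changes were 0.08 and 0.06, and that of Atp6v1c2 was 0.11.

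Slc4 genes encode bicarbonate transporters and their relatives, and 3 of the 6 lay higher and 3 lower. Slc4a4 encodes NBCe1, the basolateral cotransporter by which the proximal tubule returns bicarbonate to the blood. It stood at 230.1, 223 and 356 CPM in controls and 243, 203 and 271 in transgenic kidneys. Control 3 was far above the others, and the log2 fold change of -0.17 ± 0.19 (SE) became 0.08 without it. Slc4a1 encodes AE1, the anion exchanger of red cells whose kidney form sits on the basolateral side of acid-secreting intercalated cells. It stood at 40.3, 34.5 and 30.7 CPM in controls and 35.3, 33.8 and 27.9 in transgenic kidneys (log2 fold change -0.12 ± 0.13, SE; -0.01 without control 1). Red cell RNA varied between these kidneys: the summed level of 4 red blood cell genes was 571 to 971 CPM in controls and 546 to 806 in transgenic kidneys, and its part in the level of Slc4a1 was not tested.

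The other Slc4 genes were Slc4a2, a widely made anion exchanger gene (0.09), Slc4a3 (0.16), Slc4a9, made in bicarbonate-secreting intercalated cells (0.17), and Slc4a11 (-0.03), as log2 fold changes. In all 4 of them control 3 was the lowest of the 6 libraries. Slc4a3 stood at 28.2 CPM there against 40.8 to 55.7 in the other 5 kidneys, and Slc4a9 at 65.6 against 82.8 to 106. Without control 3 the log2 fold changes of Slc4a3 and Slc4a9 were -0.07 and 0.02, and that of Slc4a2 was 0.0067 (0.22 without control 2).

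Of the Slc26 anion transporters, Slc26a4 encodes pendrin, the apical chloride-bicarbonate exchanger of bicarbonate-secreting intercalated cells. It stood at 57.2, 61.0 and 58.1 CPM in controls and 74.6, 59.5 and 66.2 in transgenic kidneys. Transgenic kidneys 1 and 3 lay above all controls and transgenic kidney 2 lay among them. The log2 fold change was 0.18 ± 0.10 (SE; unadjusted p = 0.112, adjusted p = 0.997, edgeR), with a range of 0.10 (without transgenic kidney 1) to 0.26 (without transgenic kidney 2). Slc26a1, a sulfate and oxalate exchanger gene of the proximal tubule, differed by 0.10 and Slc26a10 by -0.13. Slc26a10 was high in control 1 alone, at 20.7 CPM, with the other controls at 12.7 and 12.5, and its log2 fold change was 0.14 without that library.

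Among the other Slc9 genes, Slc9a8 encodes NHE8, an exchanger of the proximal tubule and of the Golgi. It stood at 249, 260 and 233 CPM in controls and 203, 258 and 192 in transgenic kidneys. Transgenic kidneys 1 and 3 lay below all controls, while transgenic kidney 2 was level with control 2. The log2 fold change was -0.18 ± 0.12 (SE; adjusted p = 0.997, edgeR), and it was -0.10 without transgenic kidney 3 and -0.32 without transgenic kidney 2. Slc9a3 and Slc9a8 thus had log2 fold changes of opposite sign. Slc9a3r2, which encodes the scaffold NHERF2 that holds the exchanger of the apical membrane and is itself no transporter, differed by 0.04.

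Carbonic anhydrases interconvert carbon dioxide and bicarbonate. Car2 encodes the cytosolic enzyme and stood at 342, 303 and 519.6 CPM in controls and 341, 316 and 329 in transgenic kidneys. Only control 3 was apart, and the log2 fold change of -0.24 ± 0.18 (SE), the lowest of the 42, became 0.03 without it. Car14, which encodes a membrane enzyme facing outward, had the highest log2 fold change, 0.28 ± 0.24 (SE), and the kidneys fell in 2 sets that cut across genotype. It stood at 95.9, 93.1 and 146 CPM in controls and 172, 93.0 and 142 in transgenic kidneys, so control 3 and transgenic kidneys 1 and 3 were high and the other 3 kidneys were low. The log2 fold change was 0.52 without control 3 and 0.08 without transgenic kidney 1.

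Apart from Car14, the membrane-anchored carbonic anhydrases of the tubule differed little. Car4, the brush border enzyme, stood at 225, 201 and 235 CPM in controls and 222, 214 and 260.0 in transgenic kidneys. Car12 stood at 257, 244 and 278 CPM in controls and 236, 254 and 286 in transgenic kidneys. Their log2 fold changes were 0.07 and -0.01, with intervals from -0.16 to 0.31 and from -0.23 to 0.22. Car15 differed by 0.02.

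Both Rh ammonia channel genes lay higher in transgenic kidneys by a small amount. Rhcg, whose product lies on the apical and basolateral sides of collecting duct cells, stood at 112, 117 and 93.8 CPM in controls and 133, 120.4 and 108 in transgenic kidneys. The groups overlapped, with transgenic kidney 3 below controls 1 and 2, and the log2 fold change was 0.16 ± 0.12 (SE; 0.07 without control 3). Rhbg, the basolateral channel, differed by 0.11, and by 0.024 without control 2 and 0.18 without control 3. Foxi1 encodes the forkhead factor that intercalated cells need, and stood at 37.1, 29.7 and 23.8 CPM in controls and 37.6, 30.0 and 32.8 in transgenic kidneys. Control 3 was the lowest, and the log2 fold change of 0.15 ± 0.16 (SE) became 0.01 without it.

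For the 8 intercalated cell markers outside the 42 genes the median log2 fold change was 0.04, 5 lying higher and 3 lower.

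**Figure D3:**
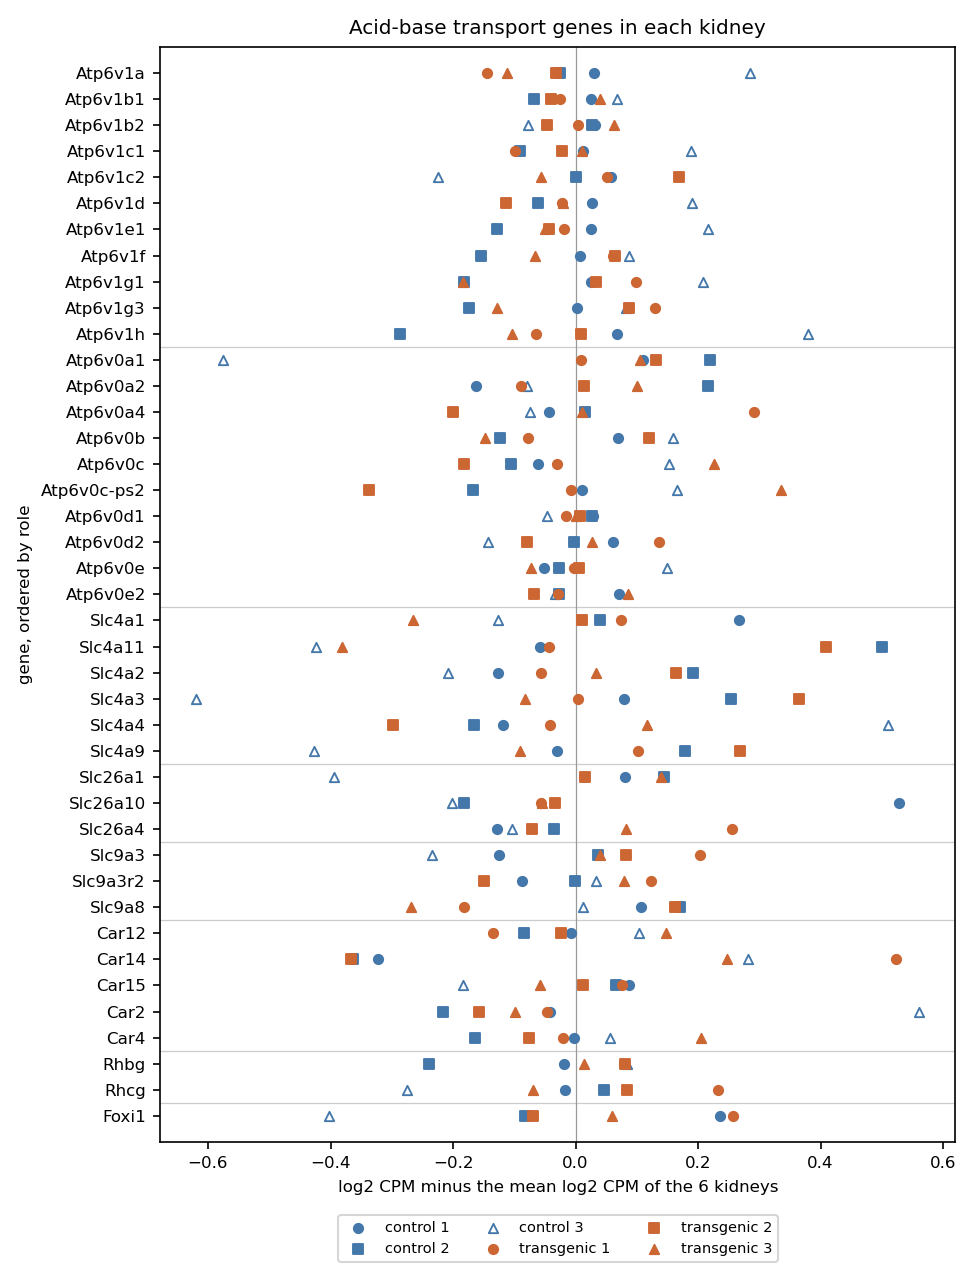
Level of 41 of the 42 genes in each kidney as log2 CPM minus the gene's mean over the 6 kidneys, controls in blue (control 3 open) and transgenic kidneys in orange, with grey lines between roles. Control 3 lies at the edge of many rows, being, over all 42, the highest library in 13 genes and the lowest in 16.

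Control 3 was the highest or the lowest of the 6 libraries in 13 and 16 of the 42 genes (31.0% and 38.1%), against 34.8% and 32.6% over all rows. Its distance from controls 1 and 2 went with the GC content of the transcript and, among the 42 genes, also with transcript length. The log2 ratio of control 3 to the mean of controls 1 and 2 had a Pearson r of -0.45 (Spearman -0.48) with GC content across the 42 genes and -0.46 (Spearman -0.54) across 7173 rows, points that all share the same 3 libraries. With log2 transcript length that ratio had a Pearson r of -0.39 (Spearman -0.45) across the 42 genes and -0.11 (Spearman -0.17) across the 7173 rows. The parts of GC content and length in it were not separated. The log2 fold change between genotypes, which uses the same libraries, had a Pearson r of 0.29 with GC content across the 42 genes and 0.39 across all these rows, and the part of GC content in single values was not tested. In the 21 genes at or above the median GC content (52.8%) the median of that ratio was -0.25 and control 3 was the lowest library in 11. In the 21 genes below it the median was 0.17 and control 3 was the highest in 9. Slc4a3, Slc4a11 and Atp6v0a1 lay at one end (-0.79, -0.67 and -0.74), and Car2, Slc4a4 and Car14 at the other (0.69, 0.65 and 0.62). With a per-library correction for GC content and transcript length, chosen after this was seen, the median of the 42 genes was 0.00 and the largest log2 fold changes in size were those of Car14 (0.29) and Slc9a8 (-0.23).

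**Figure D4:**
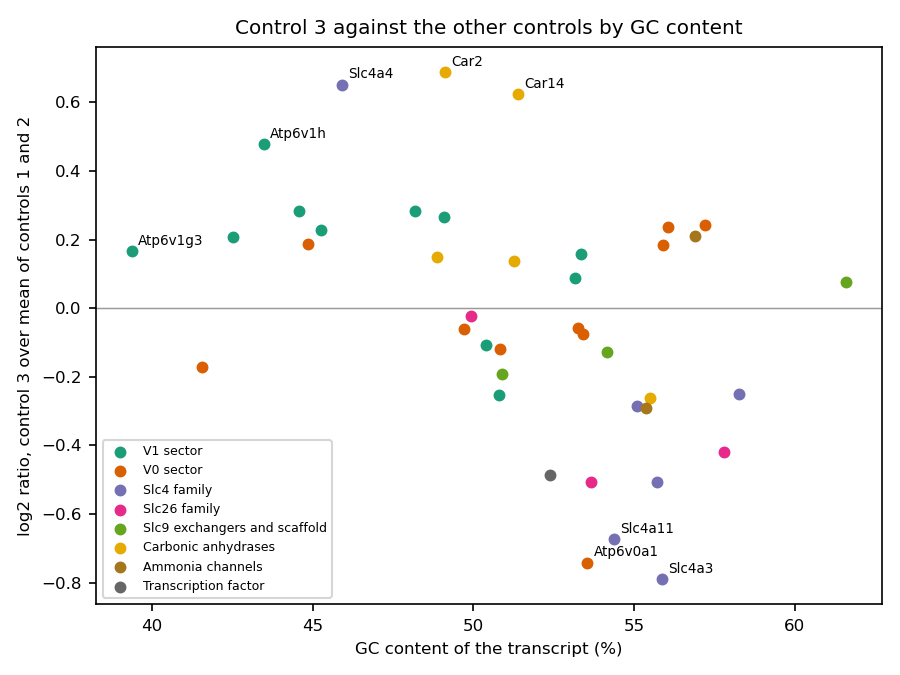
Each point is 1 gene (41 of the 42), coloured by role, with the GC content of its transcript (percent) against the log2 ratio of control 3 to the mean of controls 1 and 2. Points fall from left to right, with Slc4a4 and Car2 at the top and Slc4a3 at the bottom.

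Of 96 other genes of acid-base handling listed in 6 groups, 59 were in the fit. Any listed gene on chromosome X or Y was left out with the other rows there and so was not tested. None of the 59 passed the test (edgeR adjusted p of 0.997 or more), while 4 had an unadjusted p under 0.05 (6.78%, against 1.82% of all rows). DESeq2 called none of them either. Of the 59, 26 lay higher and 33 lower, and their median log2 fold change was -0.02. The groups did not overlap in 1 that was higher (1.69%, against 2.96% of all rows) and 6 that were lower (10.2%, against 3.02%). The higher one was Tldc2 (also, like Ncoa7, among the intercalated cell markers), of the family of pump-binding TLDc proteins, at 3.21 ± 0.307 CPM (SD, n = 3) among control kidneys against 4.54 ± 0.338 (SD, n = 3) among transgenic ones.

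Among the lower ones was Ncoa7, another TLDc gene whose product binds the pump, at a log2 fold change of -0.18. Stk39, which encodes the kinase SPAK that regulates salt transporters, had 42.1, 39.2 and 47.5 CPM in controls and 32.2, 37.0 and 30.8 in transgenic kidneys (log2 fold change -0.37 ± 0.11, SE; unadjusted p = 0.01002, adjusted p = 0.997, edgeR). The potassium channel gene Kcnj16 and the endosomal chloride-proton exchanger gene Clcn3 each differed by -0.16, and Slc5a8, a lactate transporter gene of the proximal tubule, by -0.20.

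By group, medians were 0.00 for the 9 genes of pump assembly and accessories, -0.05 for the 10 of ammonia production and handling, -0.03 for the 18 chloride and potassium partners, -0.05 for the 13 scaffolds and kinases and 0.01 for the 8 of pH sensing and control. Of the other carbonic anhydrases only Car3 was tested, at -0.55 ± 1.15 (SE). Tcirg1, the a3 subunit gene of the pump, differed by 0.00, and the scaffold gene Slc9a3r1 by 0.04. Beside these, the summed levels of marker lists of other kidney cells overlapped between the groups for proximal tubule, principal cell, thick ascending limb and distal convoluted tubule, at 28621 to 29458 CPM in controls and 27614 to 31845 in transgenic kidneys for the 14 proximal tubule genes. The list whose sums did not overlap was that of podocytes, at 155 to 204 CPM in controls and 214 to 253 in transgenic kidneys over 4 genes, and its part in the values above was not tested.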

How the data were processed

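Estimated counts, which the authors deposited as raw columns, were used for all 6 kidneys; per the file headers, rows were kept where at least 2 of 6 samples had an NRPKM of 5 or more, so genes low in nearly all kidneys were not analysed here. The build was mm10, per the submitters' processing notes; aligner and counter: not given in the sources used here. A further 12 per-sample columns matched no sample described here and stayed unused. The deposited normalized log2 values, centred per gene by the authors, served 1 alternative.

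Counts were rounded, the 178 rows at 0 in control 3 were left out, filterByExpr removed 1 row, and 7194 rows were fitted with edgeR 4.0.16 (R 4.3.3; TMM, quasi-likelihood test, group as the only term, Benjamini-Hochberg adjustment, threshold 0.05, two-sided). The standard error is the log2 fold change over the square root of F. Alternatives used DESeq2 1.42.0 and limma 3.58.1. The procedure was tested on simulated data. Transcript lengths and GC content came from GENCODE M21, positions and upstream windows from RefSeq.

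The genes and lists were chosen with earlier results of these data known. Values in every kidney were given for genes without overlap between groups, the 8 with the smallest unadjusted p, and 14 named for their roles, with others given where 1 library decided a value, chosen after their values were seen. A few genes that met this rule or the name rule are not reported here.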

Additional observations from a re-analysis of the deposited data

How the results depend on the processing

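None of the 42 genes was called with any of the 15 other settings, and the smallest adjusted p among them was 0.435 (limma voom with sample quality weights), where 6 of the 42 had an unadjusted p under 0.05 (8.81% of all rows). None of the 59 other acid-base genes was called either. Over all rows 1 gene was called; the count was 2 with DESeq2 (Ren1 among them), 0 with all rows kept (112 at an unadjusted p under 0.05) and 0 with limma on the deposited log2 scale (134), and 0 to 2 without 1 library (the 2 without control 3, Ren1 and Hba-a2). The cause was not tested.

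Of the 42 genes 30 kept the sign of their log2 fold change in all settings that used all 6 libraries, and 15 when libraries were left out in turn. The sign changed with limma and quality weights in Atp6v1b2 (-0.017), Atp6v0a1 (-0.024), Atp6v0e (0.017), Slc4a3 (-0.013), Slc4a4 (0.044), Slc26a1 (-0.014), Car15 (-0.060) and Foxi1 (-0.047). With the GC and length correction, chosen after the data were seen, it changed in Atp6v0a2 (-0.013), Atp6v0c (-0.023), Atp6v0c-ps2 (-0.040), Atp6v0e (0.016), Slc9a3r2 (-0.038) and Car15 (-0.017), and with limma on the deposited log2 scale in Atp6v0c-ps2 (-0.0073). With 1 library left out in turn, the log2 fold change ran from -0.055 to 0.012 for Atp6v1b1, from -0.022 to 0.039 for Atp6v1b2, from -0.14 to 0.0027 for Atp6v1c1, from -0.16 to 0.013 for Atp6v1e1, from -0.027 to 0.093 for Atp6v1f and from -0.13 to 0.063 for Atp6v1g1. Under the same omissions it ran from -0.0098 to 0.13 for Atp6v1g3, from -0.28 to 0.047 for Atp6v1h, from -0.084 to 0.28 for Atp6v0a1, from -0.065 to 0.13 for Atp6v0a2, from -0.057 to 0.19 for Atp6v0a4 and from -0.10 to 0.10 for Atp6v0c. It further ran from -0.17 to 0.16 for Atp6v0c-ps2, from -0.031 to 0.0072 for Atp6v0d1, from -0.087 to 0.016 for Atp6v0e, from -0.052 to 0.028 for Atp6v0e2, from -0.26 to 0.26 for Slc4a11 and from -0.065 to 0.34 for Slc4a3. For other genes the span was from -0.29 to 0.078 for Slc4a4, from -0.055 to 0.20 for Slc26a1, from -0.26 to 0.14 for Slc26a10, from -0.012 to 0.12 for Slc9a3r2 and from -0.084 to 0.059 for Car12. The span was also from -0.066 to 0.064 for Car15, from -0.39 to 0.026 for Car2 and from -0.015 to 0.13 for Car4. Without control 3 the sign changed in 16 genes, 26 lay higher and 16 lower.

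The replicate number as a block gave 1 called gene over all rows and 0 among the 42, and 176 rows with an unadjusted p under 0.05 against 131; it turned the sign of Atp6v0c-ps2 (-0.0050). Same-numbered kidneys share only a number: their deviations correlated at -0.02 to 0.33, against -0.43 to 0.43 for other pairs.

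Leaving out 1 library moved the difference in isoform share, in percentage points, from -0.99 to 0.39 for Atp6v1b1, -3.19 to 1.58 for Atp6v0a4, 0.35 to 3.89 for Atp6v1c2, 0.32 to 0.71 for Atp6v1g3, 0.0070 to 0.74 for Atp6v0d2 and -0.69 to 1.82 for Atp6v0e2. The median of the 42 genes stayed between 0.00 and 0.03. Counts of the 42 genes were at least 321 in every library, and each group had only 3 kidneys.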
